A study of Mus musculus with 192 samples.

Results

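Homozygous L44 mice (HOM) were compared with nontransgenic mice (NON) at T3, the last of the study's time points, in tissue collected in the morning (AM) from the midbrain, left cortex and right cortex. L44 mice carry triprolyl-human amylin, a form of human amylin with substitutions from the rodent sequence, under a rat insulin promoter, so the transgene is driven in pancreatic beta cells, and whether the brain also expressed it was not tested. All pools whose labels gave T3, AM, 1 of these regions and either genotype were taken, which gave 24 of the 192 pools in the series. Each region had 5 HOM pools, made from 8 mice, and 3 NON pools, made from 4 mice. All mice were males on the FVB/n background, and the ages of those in these pools were 400 to 407 days.

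Pools held the RNA of 1 or 2 mice and are named by the mouse numbers on their labels. The HOM pools were 2/7, 3/4, 6, 8/9 and 10 in every region, and the NON pools were 3/4, 7 and 10 in the midbrain and right cortex and 3/4, 7 and 11 in the left cortex. The 3 regions therefore came largely from the same mice and are not independent of each other. The labels called 4 of the 5 HOM pools previously diabetic, the exception being pool 6, and 1 of the 3 NON pools, pool 7, was also called previously diabetic. Genotype and past diabetes cannot be fully told apart in these pools. By its methods, the study preferred littermates as controls and otherwise took mice of the same age from other litters. Which of these NON mice were littermates of the HOM mice was not known here. The legend of the study's own comparison lists fewer pools per genotype than the labels give, and the labels were followed here. The 4 hemizygous (HEM) pools set beside these came from mice of 400 to 407 days, and pools 2/3 and 6 among them were labelled previously diabetic. At the earlier time point T2, the onset of diabetes, HOM pool 1/3 spanned 133 to 162 days and HOM pool 5 was of 224 days, while NON pools 1/3 and 7/8 spanned 130 to 162 and 222 to 286 days, so ages at T2 were wider than at T3.

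Amylin is secreted with insulin by pancreatic beta cells and acts on the brain through the calcitonin receptor joined to a receptor activity-modifying protein (Ramp). Insulin and leptin also signal to the brain: insulin through its receptor, the insulin receptor substrates, phosphoinositide 3-kinase (PI3K) and Akt, and leptin through its receptor, the kinase Jak2 and the transcription factor Stat3. In the hypothalamus these hormones act on neurons that make peptides which promote feeding, such as Npy and Agrp, or restrain it, such as Pomc and Cart.

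Each pool had counts of 43 target genes of these pathways and of 3 reference genes, counted with barcoded probes on the nCounter platform. Summed over the target genes, the counts came to 232405 to 291696 in the midbrain pools and 104562 to 235940 in the right cortex pools. In the left cortex the HOM pools had 172210 to 268896 and the NON pools 90540 to 151941, so the groups did not overlap in depth there. A gene was taken as above background in a pool when its count exceeded the mean of that pool's negative control probes by more than 2 SD. All 8 pools were above background for 40 genes in the midbrain, 34 for the left and 33 for the right cortex.

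The tissue block called midbrain includes the hypothalamus, and its peptide genes were read as a check of the dissection. Mch, the precursor of melanin-concentrating hormone, had a median of 4015 counts per 1000 reference gene counts in the midbrain pools, against 15.5 for left and 16.4 for right cortex pools. Hcrt, the precursor of the orexins, had medians of 133 for the midbrain, 4.38 for the left and 4.67 for the right cortex on the same scale. In every pool Mch and Hcrt were higher in the midbrain than in any cortex pool. The probe set held no glial, vascular or blood cell markers, so the cell make-up of the pools could not be checked further.

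In the midbrain, 12 of the 43 target genes were higher in HOM than in NON pools at an adjusted p under 0.05 (27.9%), and 0 were lower (0%). The right cortex had 15 genes that were higher (34.9%) and 0 that were lower (0%). Fitting only the compared pools called 0 genes in the right cortex. With morning and afternoon pools together, 0 were called in the midbrain and right cortex. In the left cortex edgeR called 0 genes in either direction (0%), with 7 genes at an unadjusted p under 0.05, and DESeq2 called 2. The changes were small: the called genes had log2 fold-changes of 0.14 to 0.28 in the midbrain and 0.18 to 0.55 in the right cortex, and 0 genes in any region (0%) passed the study's limit of 1, in edgeR or in DESeq2. All values are relative to the reference genes, and in these tissue pools fewer cells of a type and less RNA per cell cannot be told apart.

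Most target genes lay higher in HOM relative to the reference genes, called or not. The log2 fold-change was positive for 36 of 43 genes in the midbrain, 28 for the left and 37 for the right cortex, with medians of 0.12, 0.078 and 0.24. Every HOM pool lay above every NON pool for 11 midbrain genes (25.6%), 4 left cortex genes (9.3%) and 10 right cortex genes (23.3%). Every HOM pool lay below every NON pool for 2 genes in the left cortex (4.65%), which were Akt1 and Pomc, and for 0 genes in the midbrain and right cortex. Called genes shared by the midbrain and right cortex numbered 8, which was 66.7% of the midbrain calls and 53.3% of the right cortex calls. They were the receptor kinase Adrbk1, the arrestin Arrb1, the kinases Akt1, Gsk3b, Jak2 and mTor, the phosphodiesterase Pde3b and the phosphatase Ptp1b. The midbrain and right cortex pools carried the same mouse numbers, and how many shared calls this alone would give was not tested.

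**Figure D1:**
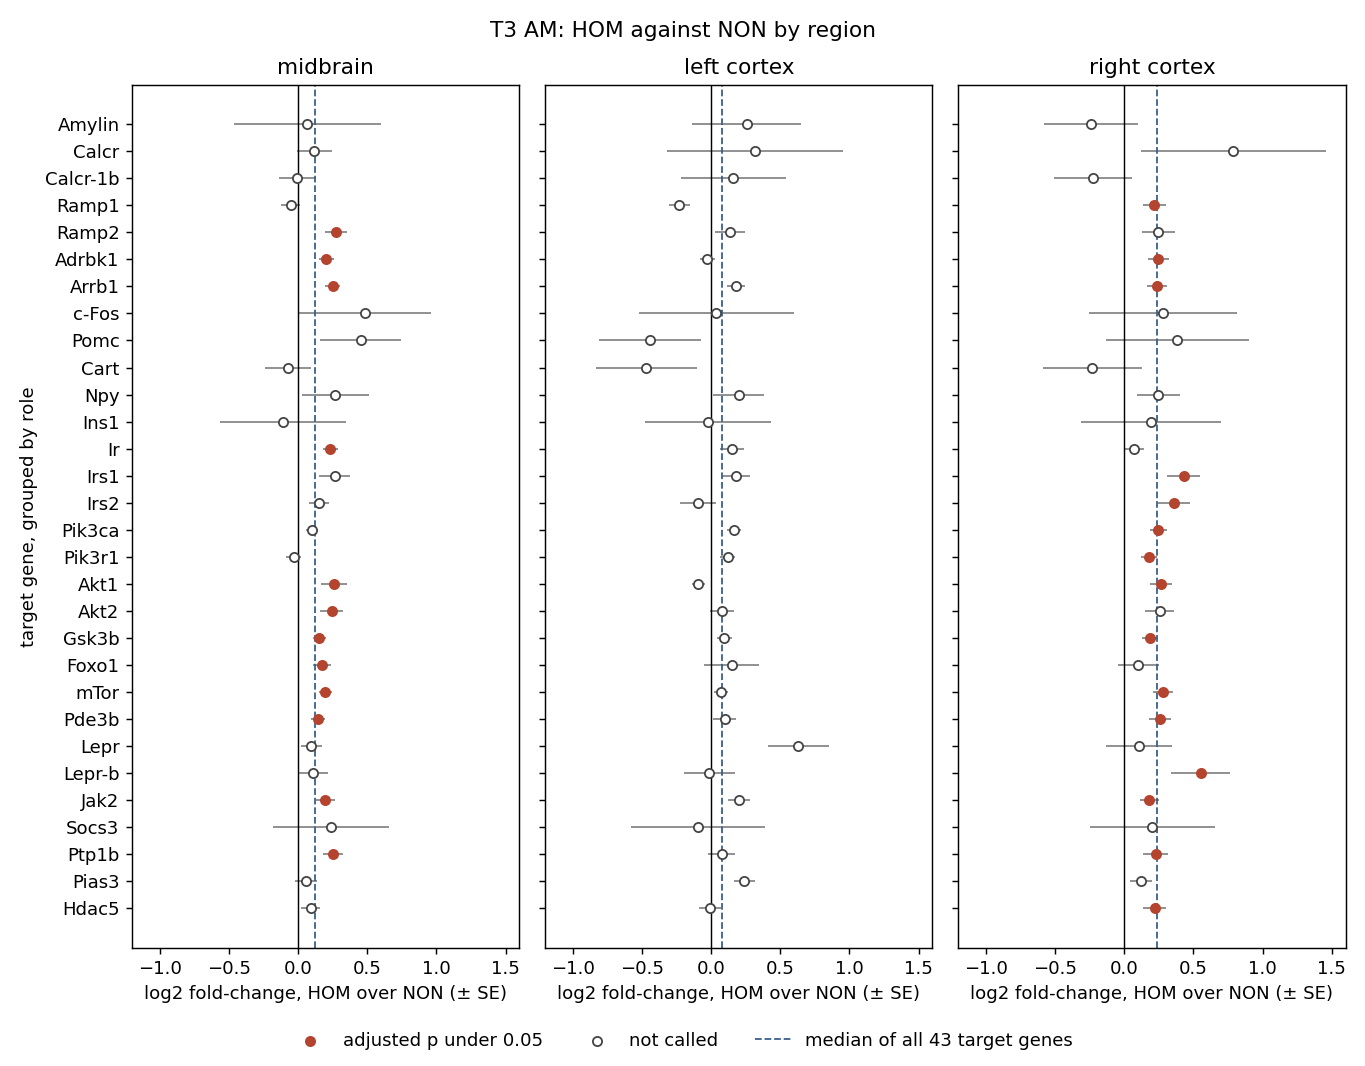
Log2 fold-change of HOM over NON, with its standard error, for 30 target genes in the midbrain, left cortex and right cortex at T3 AM. Filled points passed an adjusted p under 0.05, and the dashed line is the median of all 43 genes. The median stood at 0.12 in the midbrain, where called genes lay at 0.14 to 0.28, and at 0.24 in the right cortex, where they lay at 0.18 to 0.55, and no point of the left cortex was filled.

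The reference genes themselves were not level. In NON pool 10, the count of B2m, the light chain of the class I histocompatibility molecules, was 16.1 times the geometric mean of the other two reference genes in the midbrain and 15.8 times in the right cortex. In the remaining NON pools of those regions this ratio was 10.2 to 11.6, and in the HOM pools it was 9.45 to 12.9. With B2m left out of the reference level, 0 genes were called in the midbrain by edgeR, with 5 at an unadjusted p under 0.05, while 3 were called in the right cortex and 3 in the left cortex, all higher in HOM. Without NON pool 10, 3 genes were called in the midbrain and 0 in the right cortex. Without NON pool 3/4, whose midbrain ratio was 11.4, 3 genes were likewise called in the midbrain.

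Scaling the pools by TMM, which sets the bulk of the target genes level between pools, moved the median log2 fold-change to -0.0019 for the midbrain, -0.040 for the left and 0.057 for the right cortex. Under TMM, 2 genes were called in the midbrain in opposite directions: Arrb1 was higher in HOM by 0.13 on the log2 scale and Pik3r1 was lower, at -0.16, each at an edgeR adjusted p of 0.0294. Also under TMM, 2 genes were called in the left cortex, both lower in HOM, and 0 in the right cortex, where 1 gene had an unadjusted p under 0.05. Whether pools overlapped also moved with the scaling. Of the 30 genes plotted by region, the HOM pools lay wholly above the NON pools for 10 in the midbrain, 4 for the left and 9 for the right cortex with the 3 reference genes, for 2, 7 and 10 with B2m left out, and for 4, 0 and 1 with TMM. They lay wholly below for 0, 2 and 0 with the 3 reference genes, for none with B2m left out, and with TMM for 1 in the midbrain, which was Pik3r1, 3 for the left cortex, which were Akt1, Pomc and Ramp1, and 0 for the right. Under each of these scalings, the HOM pools lay wholly above the NON pools for Adrbk1 in the midbrain and Irs1 in the right cortex. No left cortex gene lay wholly above or wholly below under all of them. The part of B2m and of NON pool 10 in the calls was not tested further.

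**Figure D2:**
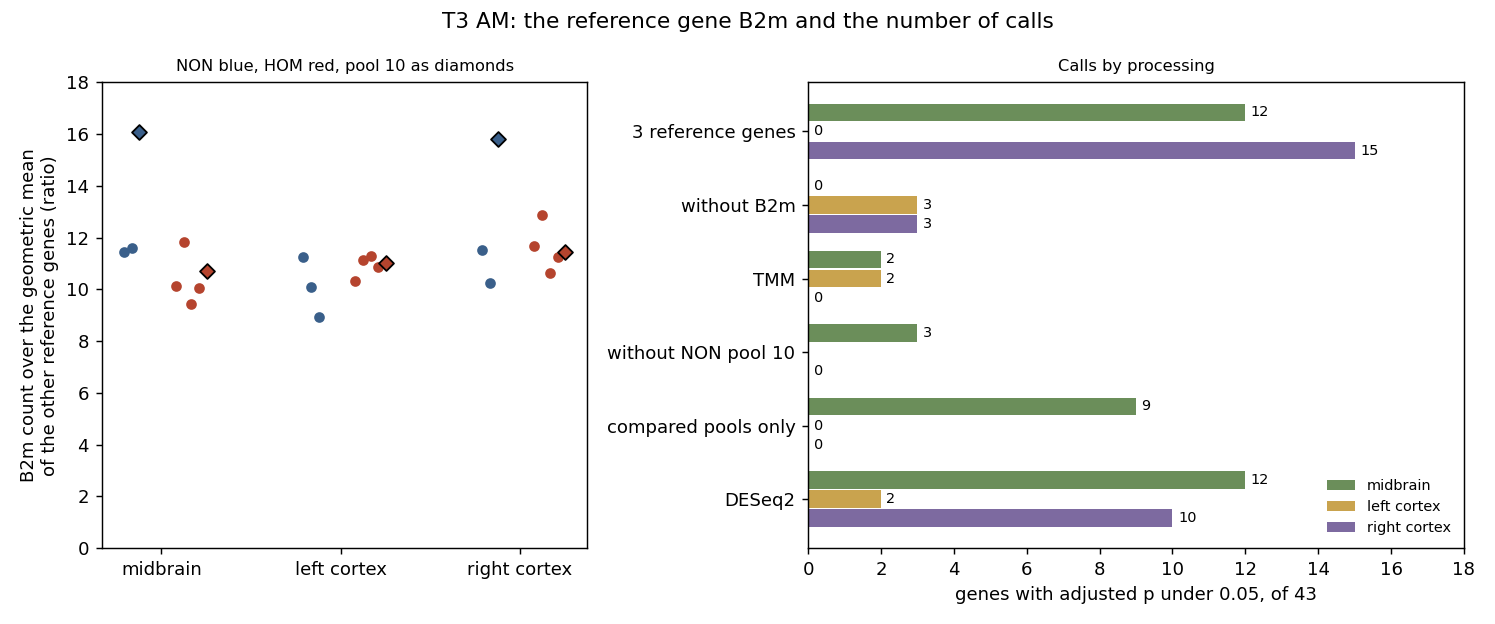
Left, the B2m count divided by the geometric mean of the other reference genes in each NON pool (blue) and HOM pool (red), with pool 10 of either genotype as diamonds. Right, the number of the 43 target genes with an adjusted p under 0.05 under each processing, where a bar for the left cortex is missing without NON pool 10 because that region has no such pool. NON pool 10 stood at 16.1 in the midbrain and 15.8 in the right cortex, above all other pools, and the calls fell from 12 and 15 to 3 and 0 without it.

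Before normalisation, the reference gene level of every HOM pool lay above that of every NON pool in the left cortex. The mean log2 level was higher in HOM by 0.65 there (exact permutation test, two-sided p = 0.0179, the smallest that 5 against 3 pools allow; 0.0536 after Benjamini-Hochberg adjustment over 12 comparisons), and remained higher by 0.60 after division by the positive control probes. In the midbrain it differed by 0.035 (exact permutation p = 0.732) and in the right cortex by -0.20 (exact permutation p = 0.536). The total of the target genes over the reference level was higher in HOM by 0.15 in the midbrain and 0.21 in the right cortex on the log2 scale, each at an exact permutation p of 0.0179, again the smallest possible and 0.0536 after the same adjustment, which does not pass 0.05. It was higher by 0.081 in the left cortex (exact permutation p = 0.107).

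Of the genes for receptor desensitisation, Arrb1, which encodes beta-arrestin and uncouples activated receptors from their G proteins, was, with Pik3ca, 1 of 2 genes whose HOM pools lay above the NON pools in all 3 regions. In the midbrain its normalised count, the count scaled to the region's average reference gene level, was 14258, 15060 and 13801 in NON pools 3/4, 7 and 10, and 17277, 16403, 16286, 16704 and 18737 in HOM pools 2/7, 3/4, 6, 8/9 and 10. The left cortex values of Arrb1 were 17217, 17015 and 16864 in NON pools 3/4, 7 and 11, and 18487, 17300, 18746, 19718 and 22166 in the HOM pools in the same order. Right cortex values were 20258, 20584 and 17755 in NON pools and 24183, 22978, 21864, 21634 and 24281 in HOM pools. Every HOM pool was above every NON pool in each region, and HOM pool 10 was the highest in each. With TMM this separation held in the midbrain and not in the cortices, and with B2m left out in the cortices and not in the midbrain. Its log2 fold-change was 0.25 in the midbrain (SE 0.052, edgeR adjusted p = 0.0015), 0.18 in the left cortex (SE 0.065, adjusted p = 0.083) and 0.24 in the right cortex (SE 0.072, adjusted p = 0.0149). The midbrain call of Arrb1 was the only call in any region that was kept when each of the 8 pools was left out in turn, and its right cortex call was lost without NON pool 10.

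Adrbk1, the G protein-coupled receptor kinase that marks receptors for arrestin binding, was higher in HOM by 0.20 in the midbrain (edgeR adjusted p = 0.0075) and by 0.25 in the right cortex (edgeR adjusted p = 0.0149). Its midbrain normalised count was 6529, 6904 and 6188 in the NON pools and 7260 to 7841 in the HOM pools, without overlap. Its left cortex log2 fold-change was -0.027. The midbrain call of Adrbk1 was kept in 7 of 8 fits that each left out 1 pool, not without NON pool 10. Its right cortex call was kept in 6 of 8, not without HOM pool 6 or NON pool 10. Neither call was kept with TMM or with B2m left out. Arrb2, the other arrestin, was not called in any region, so 2 of 3 genes of this list were called in the midbrain and 2 of 3 in the right cortex, beside 27.9% and 34.9% of all genes. The 3 genes of this list had a median log2 fold-change of 0.20 for the midbrain, 0.030 for the left and 0.24 for the right cortex, which under TMM became 0.079, -0.085 and 0.057.

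Of the 7 genes for amylin and its receptor, Ramp2 was called in the midbrain and Ramp1 in the right cortex, both higher in HOM, which was 1 of 7 in each beside 27.9% and 34.9% of all genes. Ramp1 and Ramp2 encode small membrane proteins that join the calcitonin receptor or its relative and set which peptide it binds. In the midbrain Ramp2 was 1844, 1784 and 1751 in NON pools 3/4, 7 and 10, and 2120, 1848, 2340, 2323 and 2234 in HOM pools 2/7, 3/4, 6, 8/9 and 10. The groups did not overlap, although HOM pool 3/4 was close to NON pool 3/4, and they overlapped with TMM and with B2m left out. The log2 fold-change of Ramp2 was 0.28 (SE 0.080, edgeR adjusted p = 0.0107), and it was not called without NON pool 10.

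Ramp1 pointed in opposite ways in the 2 cortices. Left cortex levels were 11430, 10310 and 11850 in NON pools 3/4, 7 and 11, and 10537, 9489, 9103, 9290 and 9342 in the HOM pools, where HOM pool 2/7 alone exceeded NON pool 7. Right cortex levels were 14520, 12097 and 11907 in the NON pools, and 15004, 14826, 16460, 14691 and 13616 in the HOM pools, where HOM pool 10 alone was under NON pool 3/4. As log2 fold-changes these were -0.23 in the left cortex (edgeR adjusted p = 0.083) and 0.22 in the right cortex (edgeR adjusted p = 0.0430). With TMM the left cortex difference was -0.35 and called (edgeR adjusted p = 0.0021), while the right cortex difference fell to 0.031 and was not called. The right cortex call of Ramp1 was kept in 2 of the 8 fits that each left out 1 pool, those without HOM pool 10 or NON pool 3/4. The midbrain log2 fold-change of Ramp1 was -0.054.

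Calcr, the calcitonin receptor that forms the core of the amylin receptor, was above background in all midbrain pools, at 803 ± 85.2 normalised counts in HOM (SD, n = 5) and 740 ± 53.8 in NON (SD, n = 3), with a log2 fold-change of 0.12 (edgeR adjusted p = 0.546). Only 4 of 8 left cortex pools and 1 of 8 right cortex pools were above background for it. Its receptor form Calcr-1b had 141 ± 7.11 normalised counts in HOM midbrain pools and 141 ± 8.62 in NON. Calcr and Calcr-1a carry the same RefSeq entry in the probe list, so what separates these probes was not settled here.

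The Amylin probe is listed under the mouse gene Iapp, and whether it reads the human transgene was not tested. It was near background in the midbrain, above it in 2 of 5 HOM and 1 of 3 NON pools. HOM pool 10 had 61.7 normalised counts in the midbrain against 13.2 to 18.9 in the other HOM pools and 20.8 to 30.8 in the NON pools. In the cortices 1 of 16 pools was above background, a HOM pool of the left cortex. At this depth no difference in Amylin was detectable. The 7 genes of the list had a median log2 fold-change of 0.026 for the midbrain, 0.14 for the left and -0.035 for the right cortex, against 0.12, 0.078 and 0.24 over all genes, and of -0.092, 0.014 and -0.22 under TMM.

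Among the insulin genes, the receptor was called in the midbrain and its substrates in the right cortex. Ir, the insulin receptor, was 2446, 2813 and 2591 in NON pools 3/4, 7 and 10 of the midbrain, and 2947, 2903, 3088, 3155 and 3292 in HOM pools 2/7, 3/4, 6, 8/9 and 10. All HOM pools were above all NON pools, which also held with TMM, whereas the groups overlapped with B2m left out. Expressed as a log2 fold-change, Ir was 0.23 higher (SE 0.056, edgeR adjusted p = 0.0044) in the midbrain, 0.15 in the left cortex (edgeR adjusted p = 0.328) and 0.073 in the right cortex (edgeR adjusted p = 0.480). The right cortex value became -0.11 with TMM. The midbrain call was lost without NON pool 3/4.

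Irs1, an adaptor that passes the signal from the insulin receptor to PI3K, was 291, 285 and 256 in NON pools 3/4, 7 and 10 of the right cortex, and 376, 327, 497, 354 and 321 in the HOM pools. HOM pool 6, the pool not labelled previously diabetic, was the highest, and the groups did not overlap. The log2 fold-change was 0.43 (SE 0.12, edgeR adjusted p = 0.0149). The groups also did not overlap with B2m left out or with TMM, and Irs1 was called under the first of these (edgeR adjusted p = 0.0248) and not under TMM. In the midbrain it was 0.26 (edgeR adjusted p = 0.070), and in the left cortex 0.18 (edgeR adjusted p = 0.328).

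Irs2, the second of these adaptors, was higher in the right cortex by 0.36 (SE 0.11, edgeR adjusted p = 0.0152), with 2841 to 3156 normalised counts in the NON pools and 3207 to 4435 in the HOM pools. The call was kept in 5 of 8 fits without 1 pool, not without HOM pools 2/7 or 6 or NON pool 10. It was 0.15 higher on the log2 scale in the midbrain and -0.096 in the left cortex, neither of which was called. Ins1, which encodes insulin, was above background in 2 of the 24 pools, both HOM pools of the midbrain, at 28.5 normalised counts in pool 6 and 19.7 in pool 2/7. Of the 5 insulin genes, the midbrain had 1 called, the left cortex 0 and the right cortex 2, near the 27.9%, 0% and 34.9% called higher over all 43 genes, with median log2 fold-changes of 0.15, -0.023 and 0.19, or 0.031, -0.14 and 0.0082 with TMM.

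Of the PI3K-Akt cascade, the longest list, 6 of 10 genes were called in the midbrain, 0 of 10 for the left and 6 of 10 for the right cortex, all higher in HOM. The list includes Pdk1, whose identity is not settled and which was not called. Over all genes 27.9%, 0% and 34.9% were called higher in these regions. The list's median log2 fold-change was 0.15 for the midbrain, 0.096 for the left and 0.25 for the right cortex, close to the medians of 0.12, 0.078 and 0.24 over all genes. With TMM the medians were 0.026, -0.019 and 0.067, with 1 gene called in the midbrain, Pik3r1, and 1 in the left cortex, Akt1, both lower in HOM.

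Pik3ca, the catalytic subunit of PI3K, was 14882, 16144 and 13224 in NON pools 3/4, 7 and 10 of the right cortex, and 18658, 17012, 17387, 17617 and 16800 in HOM pools 2/7, 3/4, 6, 8/9 and 10. Left cortex counts were 12641, 13703 and 12360 in NON pools 3/4, 7 and 11, and 13885, 14804, 14314, 14975 and 14387 in the HOM pools. The groups did not overlap in either cortex, nor in the midbrain, where the NON pools reached 15223 and the HOM pools began at 15297. For Pik3ca the log2 fold-change was 0.25 in the right cortex (SE 0.062, edgeR adjusted p = 0.0090), 0.17 in the left cortex (SE 0.051, edgeR adjusted p = 0.069) and 0.10 in the midbrain (SE 0.043, edgeR adjusted p = 0.070). The left cortex difference was called when B2m was left out, at 0.20 (edgeR adjusted p = 0.0214). The midbrain difference was then -0.0011 and the groups overlapped, and with TMM they overlapped in all 3 regions.

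Pik3r1, the regulatory subunit of PI3K, was higher in HOM in the right cortex by 0.18 (SE 0.057, edgeR adjusted p = 0.0152), at 9658 to 10615 normalised counts in NON and 11139 to 12306 in HOM pools. In the midbrain it was 6155, 6950 and 6322 in the NON pools, and 6293, 6245, 6250, 6612 and 6257 in the HOM pools, which overlapped, with a log2 fold-change of -0.032. Pik3r1 and Pik3ca both lay under the median of all genes in the midbrain, which was 0.12, and their difference was not tested. With TMM the right cortex value of Pik3r1 was -0.0043.

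mTor, the kinase that couples nutrient and growth signals to protein synthesis, was 5190, 5834 and 4933 in NON pools 3/4, 7 and 10 of the right cortex, and 6831, 6298, 6854, 6249 and 6054 in the HOM pools. In the midbrain it was 4452, 4924 and 4854 in the NON pools, and 5312, 5152, 5549, 5686 and 5501 in the HOM pools. With the 3 reference genes the groups did not overlap in either region. The log2 fold-change was 0.28 in the right cortex (SE 0.071, edgeR adjusted p = 0.0090) and 0.20 in the midbrain (SE 0.049, edgeR adjusted p = 0.0047). Its left cortex value was 0.072 (edgeR adjusted p = 0.488), and HOM pool 3/4 was the lowest of the 8 pools there. With TMM the mTor groups overlapped in both the midbrain and the right cortex, where the log2 fold-changes were 0.073 and 0.095, and with B2m left out they overlapped in the midbrain and not in the right cortex.

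Akt1, the protein kinase downstream of PI3K, was 9673, 12658 and 8492 in NON pools 3/4, 7 and 10 of the midbrain, and 11932, 12651, 12861, 10975 and 13146 in the HOM pools. NON pool 7, the NON pool labelled previously diabetic, lay among the HOM pools. In the right cortex the groups did not overlap, at 11501 to 12549 in NON and 13126 to 15304 in HOM. In the left cortex the order was turned, with 10749, 10933 and 11379 in NON pools 3/4, 7 and 11, and 10557, 10302, 10645, 10672 and 9488 in the HOM pools. For Akt1 the log2 fold-change was 0.26 in the midbrain (edgeR adjusted p = 0.0345), 0.26 in the right cortex (edgeR adjusted p = 0.0149) and -0.093 in the left cortex (edgeR adjusted p = 0.297). With TMM the left cortex value was -0.21 and called (edgeR adjusted p = 0.018), whereas with B2m left out it was -0.053 (edgeR adjusted p = 0.601) and the groups overlapped. The midbrain call of Akt1 held in 3 of 8 fits that each left out 1 pool.

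Of the other members, Akt2, the isoform best known for insulin-stimulated glucose uptake, was called in the midbrain at 0.24, where the NON pools reached 1227 and the HOM pools began at 1307, and at 0.12 and uncalled with TMM. Gsk3b, a kinase that Akt inhibits, was called in the midbrain at 0.15 and in the right cortex at 0.19. With TMM these values were 0.031 and -0.00047, so that both calls ended and hardly any right cortex difference was left. Pde3b, a phosphodiesterase that lowers cAMP, was called in the midbrain at 0.14 and in the right cortex at 0.26, or 0.021 and 0.080 and uncalled with TMM. Foxo1, a transcription factor that Akt keeps out of the nucleus, was called in the midbrain at 0.17, and at 0.050 and uncalled with TMM. With 1 pool left out at a time, the midbrain call of Foxo1 was kept in 2 of 8 fits, those without HOM pool 2/7 or NON pool 7, and those of Akt2 and Pde3b in 4 of 8, being lost for both without HOM pools 3/4 or 10 or NON pools 3/4 or 10. The midbrain call of Gsk3b was kept in 6 of 8, not without NON pools 3/4 or 10. In the midbrain NON pool 7 stood highest of the NON pools for Akt2, Gsk3b, Pde3b and Foxo1.

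**Figure D3:**
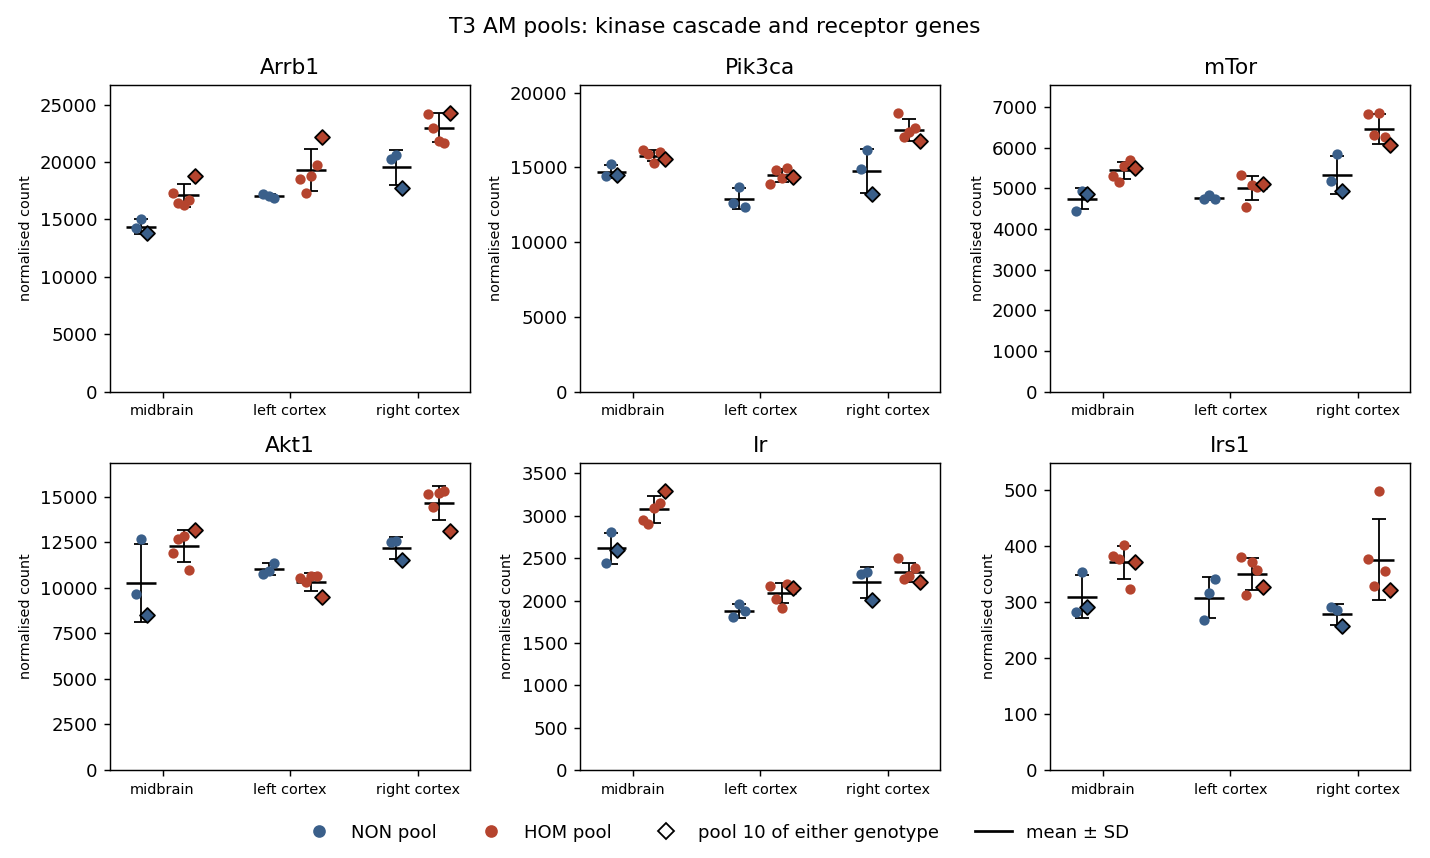
Normalised counts of Arrb1, Pik3ca, mTor, Akt1, Ir and Irs1 in each NON pool (blue) and HOM pool (red) of the midbrain and both cortices at T3 AM, on linear axes from 0, with pool 10 of either genotype as diamonds and bars for the mean ± SD. For Arrb1 and Pik3ca all HOM pools lay above all NON pools in each region, and on this scale the Akt1 counts of the HOM pools lay below those of the NON pools in the left cortex only.

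Among the leptin genes, the long receptor form and Jak2 were called in the right cortex and Jak2 in the midbrain, which was 2 of 4 and 1 of 4 beside 34.9% and 27.9% of all genes. The 4 genes of this list had median log2 fold-changes of 0.12, 0.22 and 0.21 in the midbrain, left cortex and right cortex, and of -0.0082, 0.10 and 0.032 with TMM. Jak2, the kinase bound to the leptin receptor, was 11761, 12533 and 12246 in NON pools 3/4, 7 and 10 of the midbrain, and 14484, 14080, 13876, 14138 and 13166 in the HOM pools. It did not overlap there or in the right cortex, where the NON pools reached 10437 and the HOM pools began at 10680. For Jak2 the log2 fold-change was 0.20 in the midbrain (edgeR adjusted p = 0.0334), 0.18 in the right cortex (edgeR adjusted p = 0.0430) and 0.20 in the left cortex (edgeR adjusted p = 0.117). With TMM the right cortex value was 0.0017, and the groups overlapped in both regions. Each call of Jak2 was kept in 4 of 8 fits without 1 pool, and both were lost without HOM pool 2/7 or NON pool 10.

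Lepr-b, the signalling form of the leptin receptor, had few counts in the cortex. Right cortex pools had 44.7, 55.3 and 33.1 normalised counts of it in NON, of which 2 were above background, and 80.4, 60.4, 81.0, 49.7 and 57.8 in the HOM pools. NON pool 7 lay above HOM pool 8/9. The log2 fold-change of 0.55 (SE 0.21, edgeR adjusted p = 0.0430) was the largest among the called genes, and its call was lost in 4 of the 8 fits without 1 pool. Lepr is listed under another RefSeq entry than Lepr-b, and which receptor forms it reads was not settled here. Its levels were 589, 470 and 425 in NON pools 3/4, 7 and 11 of the left cortex, and 722, 521, 1132, 707 and 733 in the HOM pools. HOM pool 6 stood high and HOM pool 3/4 lay within the NON pools. The log2 fold-change was 0.63 (SE 0.22, edgeR adjusted p = 0.083) in the left cortex, 0.095 in the midbrain and 0.11 in the right cortex.

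Of the 3 inhibitors of these pathways, Ptp1b was called in the midbrain and right cortex and the other two in no region, so the 1 of 3 was near the 27.9% and 34.9% of all genes. Their median log2 fold-change was 0.24 for the midbrain, 0.076 for the left and 0.20 for the right cortex, or 0.11, -0.045 and 0.019 with TMM. Ptp1b, a phosphatase that acts on the insulin receptor and Jak2, was 4347, 4756 and 4611 in NON pools 3/4, 7 and 10 of the midbrain, and 5518, 5263, 5612, 5564 and 5262 in the HOM pools, without overlap. Its log2 fold-change was 0.25 in the midbrain (SE 0.074, edgeR adjusted p = 0.0107), 0.23 in the right cortex (SE 0.087, edgeR adjusted p = 0.0430) and 0.076 in the left cortex (edgeR adjusted p = 0.691). The midbrain call of Ptp1b was kept in 6 of 8 fits that each left out 1 pool, not without NON pools 3/4 or 10. Its midbrain groups overlapped with B2m left out and not with TMM. The right cortex call of Ptp1b was kept in 3 of 8 fits, those without HOM pools 3/4 or 10 or NON pool 7. The right cortex value was 0.038 with TMM. Pias3, an inhibitor of Stat3, was 1075, 1146 and 1164 in NON pools 3/4, 7 and 11 of the left cortex, and 1353, 1257, 1293, 1313 and 1452 in the HOM pools. The left cortex groups did not overlap for Pias3, and the log2 fold-change was 0.24 (SE 0.075, edgeR adjusted p = 0.069), called when B2m was left out at 0.28 (edgeR adjusted p = 0.0214). Socs3, which blocks signalling from the leptin receptor, had 41.5 to 109 normalised counts over all pools and regions, with standard errors of 0.42 to 0.48, and no difference was detectable at this depth.

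Hdac5, a histone deacetylase with a role in leptin signalling, was called in the right cortex at 0.22 (SE 0.084, edgeR adjusted p = 0.0430). This call was kept in 3 of the 8 fits that left out 1 pool, those without HOM pools 3/4 or 10 or NON pool 3/4, and the value was 0.034 with TMM. Its log2 fold-change was 0.091 in the midbrain and -0.0064 in the left cortex. HOM pool 10 was the lowest HOM pool for Hdac5 in each region. Of the histamine genes, Hdc, which makes histamine and was named after its values were seen, was 0.42 higher in HOM in the right cortex and -0.38 in the left cortex, neither of which was called. Hdc, Hdac5 and the histamine receptor gene Hrh1 had a median log2 fold-change of 0.091 for the midbrain, -0.0064 for the left and 0.30 for the right cortex, or -0.033, -0.13 and 0.11 with TMM.

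None of the appetite peptide genes, nor the melanocortin receptor gene Mc4r listed with them, was called by edgeR in any region. None of these genes had an unadjusted p under 0.05. These were 0 of 7 genes per region, where 27.9%, 0% and 34.9% of all 43 genes were called higher, and how unusual 0 of 7 is was not tested. Their list had median log2 fold-changes of 0.10 for the midbrain, 0.15 for the left and 0.25 for the right cortex, or -0.010, 0.031 and 0.077 with TMM. Pomc, the precursor of alpha-melanocyte-stimulating hormone, was 234, 297 and 237 in NON pools 3/4, 7 and 10 of the midbrain, and 295, 375, 385, 424 and 270 in the HOM pools, which overlapped. The midbrain log2 fold-change of Pomc was 0.45 (SE 0.29, edgeR adjusted p = 0.293). In the left cortex Pomc was near background, at 43.2 to 52.9 in the NON pools and 27.0 to 42.0 in the HOM pools, without overlap on this scale or with TMM but overlapping with B2m left out, and with a log2 fold-change of -0.44 (SE 0.37, edgeR adjusted p = 0.533).

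HOM pool 10, made from 1 mouse, set the spread of several of these genes. Npy, neuropeptide Y, was 23619 there in the midbrain, against 15680, 15351, 12460 and 14371 in HOM pools 2/7, 3/4, 6 and 8/9 and 12514 to 14357 in the NON pools. Left cortex Npy was 55864 in HOM pool 10, 28691 to 32750 in the other HOM pools and 30914 to 31361 in the NON pools. In the right cortex it was 56910, against 38020 to 40812 and 33007 to 40356. HOM pool 10 was therefore the highest of all 8 pools in every region, at 1.63, 1.82 and 1.43 times the mean of the other HOM pools. The log2 fold-change of Npy was 0.27 for the midbrain, 0.20 for the left and 0.25 for the right cortex with this pool, and 0.097, -0.021 and 0.13 without it.

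In the same pool c-Fos, an immediate early gene used as a marker of recent neuronal activity, was the lowest of the 8 pools in every region. In the midbrain it was 1758 in HOM pool 10, 3352 to 5202 in the other HOM pools and 2064 to 3762 in the NON pools. Left cortex c-Fos was 1785, against 5088 to 8511 and 3598 to 8249, and in the right cortex 2407, against 6971 to 11064 and 4817 to 7439. These levels were 0.41, 0.27 and 0.28 times the mean of the other HOM pools. The log2 fold-change of c-Fos was 0.48 for the midbrain, 0.038 for the left and 0.28 for the right cortex, with standard errors of 0.48 to 0.56, and 0.66, 0.27 and 0.50 without HOM pool 10.

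Cart, a peptide that restrains feeding, was also low in HOM pool 10 of the cortices. Left cortex Cart was 431 there, 1250 to 2382 in the other HOM pools and 1510 to 2484 in the NON pools. In the right cortex it was 657, against 2126 to 2986 and 2277 to 2778. These were 0.27 and 0.26 times the mean of the other HOM pools, while in the midbrain Cart was 4261 in HOM pool 10 against 4826 to 5593 in the other HOM pools, a ratio of 0.80. NON pool 10 had 4144 in the midbrain and was lower still. The log2 fold-change of Cart was -0.075, -0.47 and -0.23 in the midbrain, left cortex and right cortex, and -0.015, -0.24 and -0.0023 without HOM pool 10.

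Pdk1 and Arrb1 ran the other way in this pool. Pdk1, which was named after its values were seen, was 6459 in HOM pool 10 against 4786 to 6080 in the other HOM pools of the midbrain, and 10463 against 6475 to 7172 in those of the left cortex. The probe's RefSeq entry is that of a pyruvate dehydrogenase kinase, while the study lists Pdk1 as the phosphoinositide-dependent kinase, so the identity of the gene is not settled. In the right cortex Pdk1 was 9569 and lay among the other HOM pools. Among the HOM pools, pool 10 was the lowest in every region for c-Fos, Cart, Hdac5, Ins1 and Ptp1b, of which Ins1 was at or under background there, and the highest in every region for Npy and Arrb1.

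**Figure D4:**
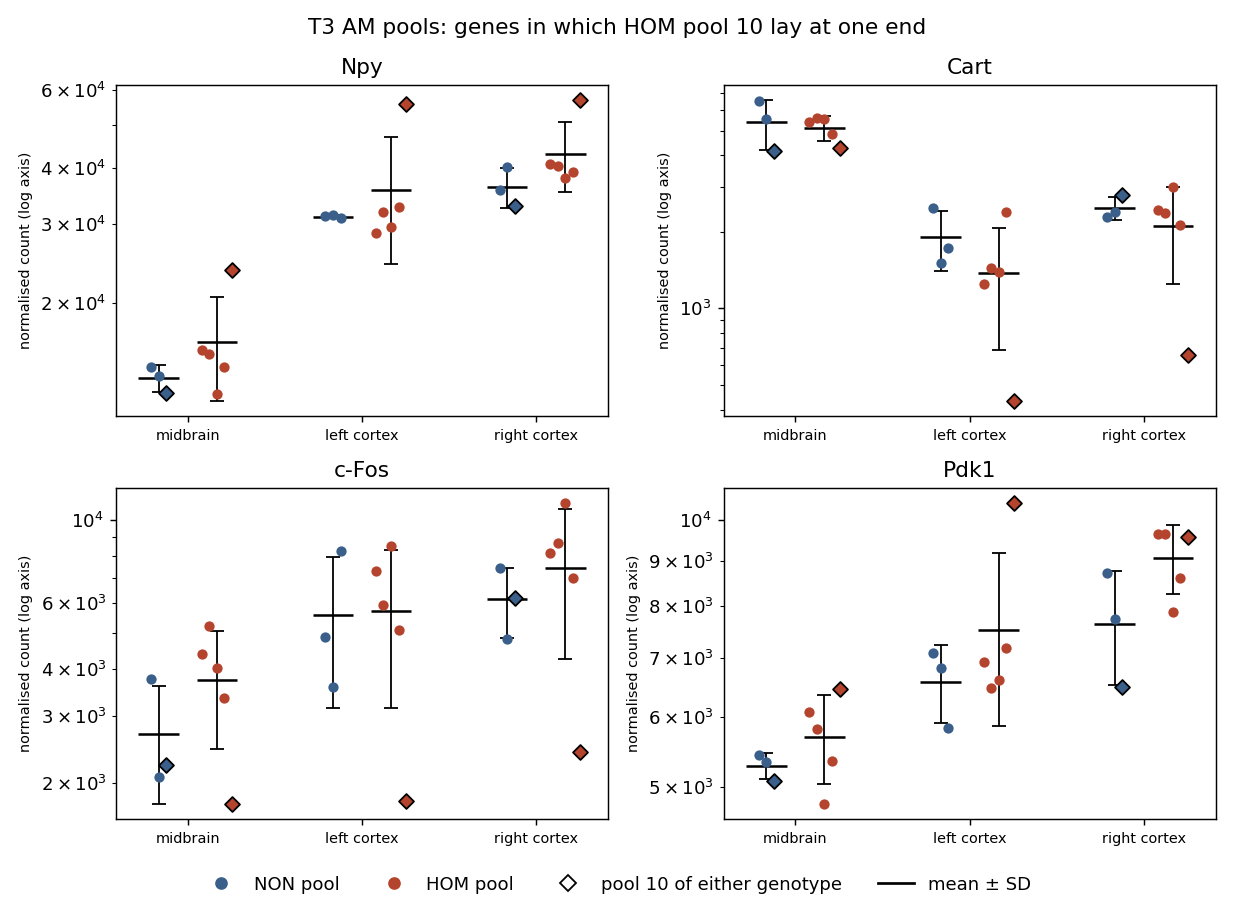
Normalised counts, on log axes, of Npy, Cart, c-Fos and Pdk1 in each NON pool (blue) and HOM pool (red) of the 3 regions at T3 AM, with pool 10 of either genotype as diamonds and bars for the mean ± SD. HOM pool 10 had the highest Npy and the lowest c-Fos of all pools in each region, and the lowest Cart of all pools in both cortices, at 431 and 657.

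c-Fos and Cart, which were both low in HOM pool 10, are known as genes that respond to cAMP, and their upstream sequences are shown for the core of a cAMP response element, which both were chosen for holding. The 250 bases before the start of each gene were read from RefSeq on GRCm38.p6, from chr12:85473640-85473889 on the plus strand for c-Fos (listed as Fos) and chr13:99900684-99900933 on the minus strand for Cart (listed as Cartpt). TGACGT was searched on both strands, so that ACGTCA on the printed strand also counted, and capitals mark the matches, which in Cart lie on both strands and overlap as TGACGTCA.
c-Fos: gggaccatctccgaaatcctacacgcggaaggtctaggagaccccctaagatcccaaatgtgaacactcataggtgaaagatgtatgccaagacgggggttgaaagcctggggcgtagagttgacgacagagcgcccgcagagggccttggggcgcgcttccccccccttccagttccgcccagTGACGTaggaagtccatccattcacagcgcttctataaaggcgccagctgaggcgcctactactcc
Cart: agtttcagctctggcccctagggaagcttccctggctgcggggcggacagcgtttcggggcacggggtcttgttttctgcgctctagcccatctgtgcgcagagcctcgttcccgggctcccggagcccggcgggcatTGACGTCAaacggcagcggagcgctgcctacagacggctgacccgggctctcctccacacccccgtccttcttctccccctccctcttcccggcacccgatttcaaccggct

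The 1 match in c-Fos began 66 bases before the start, and the first of the 2 in Cart 112 bases before it. Of 32851 mouse upstream windows of the same length, 6.47% held these letters, against which the 2 chosen genes show nothing. The windows of Hdac5, Ins1 and Ptp1b, the other genes lowest in HOM pool 10 among the HOM pools of every region, had 0 matches. A match is a description of the sequence, and whether any factor bound there in these mice was not measured.

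Whether the effect of genotype differed between regions was tested directly, with the pool of mice as a block. edgeR called 0 of 43 genes in each of the 3 pairs of regions, with 3 genes at an unadjusted p under 0.05 for the left cortex against the midbrain, 4 for the right cortex against the midbrain and 5 for the right against the left cortex. limma with the pool as a random block called 2 genes, both for the right against the left cortex, which were Hdc with a difference of 0.75 (adjusted p = 0.0169) and Ramp1 with a difference of 0.41 (adjusted p = 0.0195). The same differences in edgeR were 0.81 for Hdc (adjusted p = 0.191) and 0.34 for Ramp1 (adjusted p = 0.191). The absence of calls in the left cortex beside 12 and 15 calls elsewhere was therefore not shown to be a difference between regions for single genes, other than for these 2 in limma.

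The HOM pools were also set against the 4 HEM pools of the same time and regions, which were pools 1, 2/3, 4/5 and 6. In the midbrain 1 gene was called: Pik3r1 had 6331 ± 158 normalised counts in HOM (SD, n = 5) and 7160 ± 233 in HEM (SD, n = 4), a log2 fold-change of -0.18 (SE 0.049, edgeR adjusted p = 0.0441). With TMM it was -0.22 (edgeR adjusted p = 3.7e-04), and 7 genes were called. Of these Arrb1 and Gsk3b were higher in HOM, by 0.11 and 0.070, and Pde3b, Pdk1, Pik3ca, Pik3r1 and Ramp1 were lower. In the left and right cortex edgeR called 0 genes between HOM and HEM, and 5 and 2 genes had an unadjusted p under 0.05. Against the same NON pools of the midbrain, HEM was also called higher for Adrbk1, Jak2 and Pde3b. Their log2 fold-changes were 0.19, 0.25 and 0.25 (edgeR adjusted p = 0.022, 0.019 and 0.0040). The other midbrain genes called between HOM and NON were higher in HEM but not called there. Gsk3a, Pdk1 and Pik3ca were called in HEM and not in HOM. The 2 comparisons share their NON pools and are not independent.

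Against T2, where 2 HOM and 2 NON pools were collected in the morning, the effect of genotype at T3 was not shown to differ. edgeR called 0 genes in the difference between the T3 and T2 effects in each region, with 9 genes for the midbrain, 3 for the left and 9 for the right cortex at an unadjusted p under 0.05, and the smallest adjusted p was 0.074. It also called 0 genes with TMM.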

How the data were processed

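Custom nCounter probes were hybridised to total RNA of each pool, and the authors deposited the raw count of each probe, with no background correction or normalisation. The target gene counts were divided by the geometric mean of the 3 reference genes. Genotypes were compared by the quasi-likelihood test of edgeR 4.0.16 in R 4.3.3 (prior count 0.125), in 1 model per region with 1 mean per combination of time point, genotype and collection time (46 midbrain, 45 left cortex and 46 right cortex pools), and adjusted by Benjamini-Hochberg over the 43 target genes. A gene was called at an adjusted p under 0.05. DESeq2 1.42.0 and limma 3.58.1 were alternatives. NanoStringDiff, which the study used, was not used here. The test was also run on simulated data, and the outcome is not reported here.

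Genes described are those called in any region, the 5 of smallest p in each, those whose pools did not overlap in at least 2 regions, and those the study's expression results name. The members and lists were chosen with earlier results of these data known. Alternatives changed the reference genes, the normalisation, the background, the pools in the model and the pools compared. Left out were the 12 T1 HEM pools without a collection time, in every model. Results on 1 reference gene are not reported here. The edgeR p-values of the region models rest on the spread between pools within groups, estimated over all pools of the model and not only those compared. Among the compared pools 8 of 12 mice were pooled in pairs in each region, and pools of 1 and of 2 mice counted alike. Of 39 pairs of pools within a group, none had matching counts (lowest chi-square per degree of freedom 6.82). Figures were drawn with matplotlib 3.10.9 in Python 3.11.15.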

Additional observations from a re-analysis of the deposited data

Results flagged for a closer look

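Single pools stood apart from the other HOM pools of their region in 9 of 96 groups tested by Dixon's criterion for 5 values. The groups were the described genes, the reference gene level and the B2m ratio in each region. Chance alone flags about 1 in 20 such groups. The regions came from the same HOM mice, so the groups are not independent and 9 of 96 cannot be weighed against that rate. HOM pool 10 accounted for 5 of the 9. Npy was 23619 normalised counts there for the midbrain, 55864 for the left and 56910 for the right cortex. Amylin was 61.7 in the midbrain and Calcr was 52.2 in the left cortex, with the other HOM pools close to background for both genes.

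HOM pool 2/7 stood high for Calcr in the midbrain, at 948.8, and for Ramp1 in the left cortex, at 10537. HOM pool 8/9 stood high for Pik3r1 in the midbrain, at 6612, and HOM pool 6 for Calcr in the right cortex, at 97.8, the only one of the HOM and NON pools there above background for Calcr.

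The difference between HOM and NON differed between the right and left cortex for Hdc, by 0.75, and for Ramp1, by 0.41 on the log2 scale, in limma with the pool as a random block. edgeR with the pool as a block called neither (adjusted p = 0.191 for both).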

How the results depend on the processing

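The log2 fold-changes of the 30 genes plotted by region were recomputed under the other settings, which gave 1912 values. Of these 1516 kept their direction and their side of the threshold, 270 lost their call and 34 gained one. The remaining 92 changed sign, none of them with a call under the other setting. The numbers of called genes are not part of this tally. The cause was not tested for any of these.

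The numbers of called genes were 12 in the midbrain, 0 for the left and 15 for the right cortex. TMM gave 2, 2 and 0, and shifted the median of all genes in each region by over 0.1 on the log2 scale. Leaving out B2m gave 0, 3 and 3, and leaving out B2m and NON pool 10 together, a setting chosen after the data were seen, gave 0 in the midbrain and 0 in the right cortex. The positive control probes as library size gave 30 in the midbrain and 0 in the right cortex. DESeq2 gave 2 in the left cortex. AM and PM pools together gave 0, 1 and 0. In the right cortex, fitting only the compared pools gave 0, only T3 pools 3, and only previously diabetic HOM pools 7. limma called 2 differences between regions, where edgeR called 0, and TMM called 7 genes between HOM and HEM, where the reference genes gave 1.

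Leaving out 1 pool at a time gave 3 to 16 calls in the midbrain, 0 to 3 for the left and 0 to 17 for the right cortex. In the midbrain 3 genes were called without NON pool 3/4 and 3 without NON pool 10, 7 without HOM pool 3/4 and 8 without HOM pool 10. Left cortex calls were 3 without HOM pool 3/4, 2 without HOM pool 2/7 and 1 without NON pool 7. Right cortex calls were 0 without NON pool 10, 7 without HOM pool 6 and 9 without HOM pool 2/7.

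HOM and NON shared the pool numbers 3/4 and 10 in the midbrain and right cortex. With the replicate block over those pairs edgeR called 0 genes in each region. Same-numbered pools correlated at 0.27 and 0.17 in the midbrain, and at 0.18 and -0.36 in the right cortex, so the numbers were not taken as pairs. No paired analysis was possible in the left cortex because its groups share 1 number.

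Genes outside the 30 plotted by region also changed sign, such as Arrb2 in the midbrain at -0.056 with TMM, and are not listed. For the 30, log2 fold-changes that changed sign are given next, each with its value under the other setting. With TMM these were, in the midbrain, Amylin -0.054, Calcr -0.0069, Hdac5 -0.033, Lepr -0.028, Lepr-b -0.016, Pias3 -0.068 and Pik3ca -0.022. Left cortex values were Akt2 -0.040, c-Fos -0.097, Gsk3b -0.021, mTor -0.045, Pde3b -0.018 and Ptp1b -0.045, and in the right cortex Foxo1 -0.078, Gsk3b -0.00047, Ir -0.11, Lepr -0.071, Pias3 -0.058 and Pik3r1 -0.0043. Gsk3b and Pik3r1 in the right cortex had been called. With the positive control probes they were, in the midbrain, Calcr-1b 0.22, Cart 0.14, Ins1 0.099, Pik3r1 0.19 and Ramp1 0.17, and in the left cortex Adrbk1 0.57, Akt1 0.50, Cart 0.10, Hdac5 0.58, Ins1 0.57, Irs2 0.50, Lepr-b 0.56, Pomc 0.14, Ramp1 0.37 and Socs3 0.49. Without B2m they were, in the midbrain, Amylin -0.032, Hdac5 -0.012, Lepr -0.0068, Pias3 -0.049 and Pik3ca -0.0011, and in the left cortex Adrbk1 0.013, Hdac5 0.034, Ins1 0.020 and Lepr-b 0.029. Without B2m and NON pool 10, Amylin in the midbrain was -0.083.

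Leaving out either of the remaining reference genes gave Calcr-1b 0.021 or 0.073 in the midbrain, and the latter also Pik3r1 0.044 and Ramp1 0.018. Subtracting the negative control mean gave Calcr-1b 0.0051 in the midbrain. AM and PM together gave Ins1 0.0012 in the midbrain, Akt2 -0.029, c-Fos -0.15, Calcr-1b -0.072 and Ptp1b -0.035 in the left cortex, and c-Fos -0.20 in the right cortex. Previously diabetic HOM pools alone gave c-Fos -0.15 in the left cortex. The replicate block gave Lepr-b -0.017, Pik3r1 0.0030 and Ramp1 0.11 in the midbrain, and c-Fos -0.56 in the right cortex.

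With 1 pool left out, 16 uncalled values of the 30 genes plotted by region changed sign, and other genes are not listed. In the midbrain Calcr-1b ranged from -0.055 to 0.027, Amylin from -0.59 to 0.26, Cart from -0.23 to 0.082, Pik3r1 from -0.068 to 0.021 and Ramp1 from -0.13 to 0.010. For the left cortex, c-Fos ranged from -0.20 to 0.44, Calcr-1b from -0.093 to 0.27, Ins1 from -0.19 to 0.26, Hdac5 from -0.060 to 0.040, Adrbk1 from -0.050 to 0.0086, Calcr from -0.13 to 0.74, Lepr-b from -0.12 to 0.10, Npy from -0.021 to 0.27, Socs3 from -0.26 to 0.0047 and Irs2 from -0.19 to 0.056. Right cortex Lepr ranged from -0.024 to 0.24.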
